A study of Homo sapiens with 21 samples.

Results

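The mitochondrial ribosomal protein genes were taken as every gene whose symbol in the count table reads MRPL or MRPS, then a number and, where there is one, a letter from A to C. The rule found 77 of the 26475 genes in the table, and all 77 passed the filter on low counts. They were followed by RNA sequencing in the human melanoma line SK-MEL-147, with 21 libraries in 7 groups of 3 replicates. Cells were treated with JQ-1, an inhibitor of BET bromodomain proteins, with TP-472, an inhibitor of the bromodomain protein BRD9, or with GSK-591, an inhibitor of the arginine methyltransferase PRMT5. Others received MS023, an inhibitor of the type I arginine methyltransferases, GSK-484, an inhibitor of the peptidyl arginine deiminase PAD4, or UNC0642, an inhibitor of the histone methyltransferases G9a and GLP. The reference was untreated cells of the same line, so that all groups share the line's genotype. The labels give no dose, time, vehicle or batch, and they call the replicates biological without saying how the cultures were separated.

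The mitochondrial ribosome translates the few proteins that are encoded by mitochondrial DNA, all of them subunits of the respiratory chain and ATP synthase. All of its own proteins are encoded in the nucleus, made in the cytosol and imported. Many descend from bacterial ribosomal proteins, and others were gained by mitochondria and have no bacterial counterpart. The 77 genes lie on 21 chromosomes. Of them, 50 encode proteins of the large subunit, which holds the peptidyl transferase centre, and 26 encode proteins of the small subunit, which binds the messenger RNA. The last, MRPS36, was named as a ribosomal protein but is now known as a component of the oxoglutarate dehydrogenase complex. A bacterial counterpart is known for 46 of the proteins and not for 30. One large-subunit protein, MRPL58, is listed in the table under its older symbol ICT1 and so falls outside the rule.

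Summed counts per library ran from 20978182 to 78776788, and the lowest count of any member in any library was 202. The melanoma genes SOX10 (at least 349 CPM, counts per 1e6 counts of the library) and AXL (at least 1770 CPM) were high in all libraries, whereas the pigment genes PMEL, MLANA, TYR and DCT and the marker S100B stayed at or below 0.448 CPM. MITF, the other melanocytic marker, ran from 9.24 to 19 CPM, averaging 18.8 CPM in JQ-1 cells and 12.8 CPM in untreated cells. Further melanoma markers differed between JQ-1 and untreated cells in both directions. Their means were 303 and 116 CPM for NGFR, 20.8 and 38.6 CPM for SOX9, and 54.7 and 62.2 CPM for EGFR. Among the markers of immune, endothelial, epithelial and fibroblast cells reported here, DCN had 0 counts and the fibroblast gene LUM was the highest, at 0.882 to 5.94 CPM. LUM averaged 1.08 CPM in JQ-1 cells and 4.76 to 5.55 CPM in the other 6 groups, and the monocyte gene CD14 0.0855 CPM in JQ-1 cells and 0.599 to 0.757 CPM in the others; their part in the changes with JQ-1 was not tested. The untreated libraries differed from every treated library in how counts depended on transcript GC content, with slopes of -0.472 to -0.389 log2 units per 10 points of GC in untreated libraries, outside the -0.329 to -0.165 of treated libraries. Each comparison with untreated cells is therefore given with the GC trend of each library left in and removed.

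Sequences upstream of the transcription start are shown for 6 of the genes with the largest changes with JQ-1, because these members moved in opposite directions. Each line holds the 100 bases before the start in RefSeq (GRCh38.p14), read 5′ to 3′ on the gene's strand. Capitals mark the ETS motif CCGGAAG or the CCAAT box, on either strand. The windows are chr7:141014953-141015052 (minus strand) for MRPS33, chr9:137551779-137551878 (plus) for MRPL41, chr22:19432445-19432544 (plus) for MRPL40, chr11:66438849-66438948 (minus) for MRPL11, chr2:75646683-75646782 (plus) for MRPL19 and chr3:131502972-131503071 (minus) for MRPL3.
MRPS33: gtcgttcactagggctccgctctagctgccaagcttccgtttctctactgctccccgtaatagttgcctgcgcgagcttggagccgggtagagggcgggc
MRPL41: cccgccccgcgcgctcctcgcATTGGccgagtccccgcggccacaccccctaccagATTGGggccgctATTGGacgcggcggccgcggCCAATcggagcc
MRPL40: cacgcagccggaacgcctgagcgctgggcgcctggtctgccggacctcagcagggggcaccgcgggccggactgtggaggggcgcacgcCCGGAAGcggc
MRPL11: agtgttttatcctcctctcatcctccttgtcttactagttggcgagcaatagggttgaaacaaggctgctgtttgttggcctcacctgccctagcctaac
MRPL19: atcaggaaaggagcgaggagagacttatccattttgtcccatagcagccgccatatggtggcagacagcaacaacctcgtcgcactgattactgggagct
MRPL3: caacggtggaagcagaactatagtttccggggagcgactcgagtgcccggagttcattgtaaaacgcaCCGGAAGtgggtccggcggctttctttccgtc
MRPS33, MRPL41 and MRPL40 were higher with JQ-1, and MRPL11, MRPL19 and MRPL3 were lower. MRPL23, which was also lower, has no window shown.

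In untreated cells the members covered a wide range of levels. Per transcript length, the level of the highest was 31.5 times that of the lowest, with a median of 73.5 TPM (transcripts per 1e6 transcripts) over the 77 genes. The 5 highest means all belong to large-subunit genes. MRPL51 averaged 328 ± 10.6 TPM, MRPL33 260.0 ± 5.68 TPM, MRPL3 205 ± 9.69 TPM, MRPL42 196 ± 10.9 TPM and MRPL36 173 ± 9.08 TPM (SD, n = 3 each). MRPL3 is a core protein of the large subunit that reaches towards the peptidyl transferase centre. MRPL3 and MRPL42 lie within their spread of each other, and so do MRPL36 and the small-subunit genes MRPS21 (172 ± 3.42 TPM) and MRPS24 (172 ± 5.61 TPM, SD, n = 3 each). The 5 lowest were MRPS14 with 10.4 ± 0.391 TPM, MRPS17 with 15.3 ± 0.123 TPM, MRPL57 with 15.5 ± 1.28 TPM, MRPL1 with 19.8 ± 0.611 TPM and MRPS11 with 21.2 ± 1.92 TPM. Neither MRPS17 and MRPL57 nor MRPL1 and MRPS11 can be ordered beyond their spread. MRPL1 forms the mobile stalk that releases spent transfer RNA. TPM here uses the median length of a gene's coding transcripts, so a cell line that favours a long or short form would shift its level. MRPL51, of 551 bases by that length, shares 382 exon bases with NCAPD2 on the other strand. MRPS24, of 725 bases and with fractional counts, shares 425 with URGCP-MRPS24 on the same strand. Reads in those bases cannot be assigned with certainty, so both levels and their ranks are less certain.

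**Figure D1:**
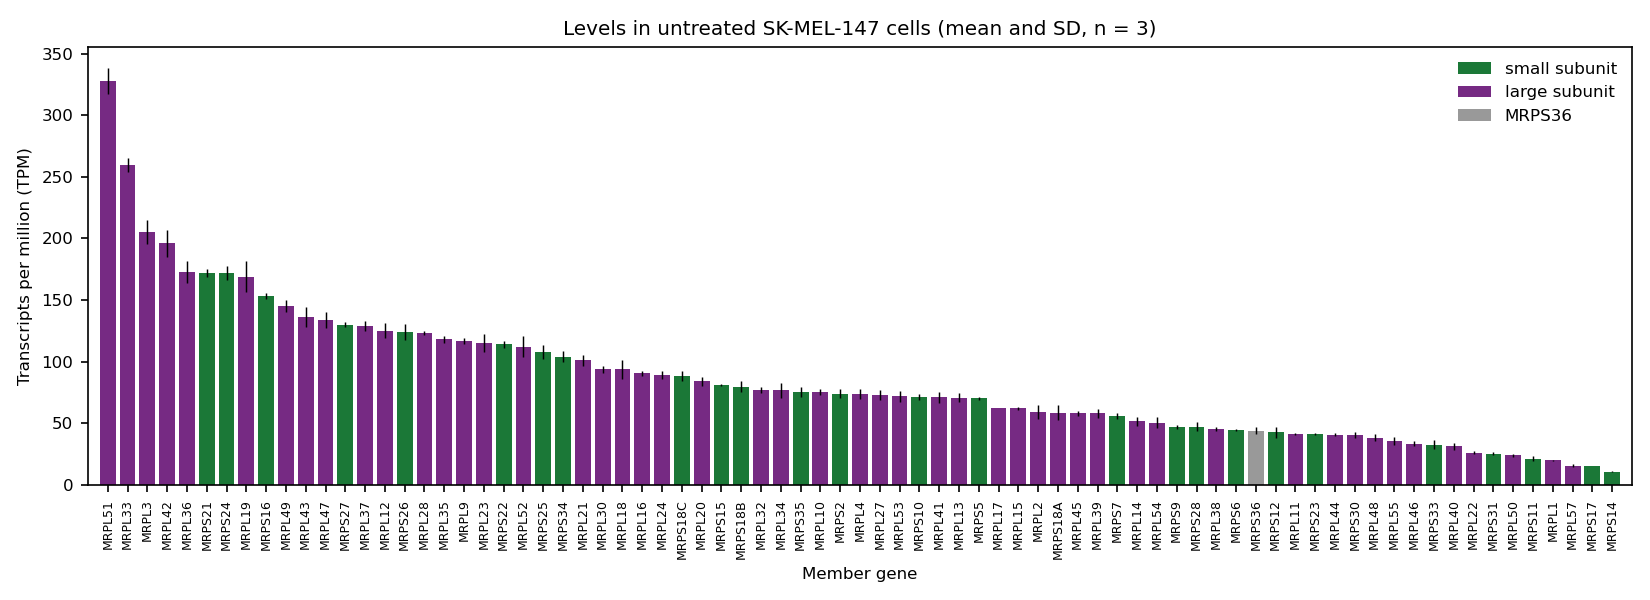
Level of each of the 77 genes in untreated SK-MEL-147 cells, in TPM on a linear axis, ordered from high to low (bars, means of 3 libraries; error bars, SD; green, small subunit; purple, large subunit; grey, MRPS36). The level falls from 328 TPM for MRPL51 to 10.4 TPM for MRPS14, and the bars of MRPL36, MRPS21 and MRPS24 lie within their SD of each other.

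JQ-1 moved members in both directions. Of the 77 genes, 23 rose and 32 fell against untreated cells at an adjusted p under 0.05 (edgeR quasi-likelihood test, Benjamini-Hochberg over 15062 genes). That is 29.9% higher and 41.6% lower, beside 35.7% higher and 37.6% lower among all genes tested, so neither share stands far from the background. In bulk libraries a change within each cell and a change in the make-up of the culture cannot be told apart. The median log2 fold change of the members was -0.10, against -0.01 for all genes. Among large-subunit genes 15 of 50 rose and 22 fell, and among small-subunit genes 8 of 26 rose and 10 fell. Of the 46 with a bacterial counterpart 11 rose and 22 fell, and of the 30 without one 12 rose and 10 fell, a difference that was not tested; with the GC trend removed the counts were 15 and 17 with a counterpart and 13 and 8 without. With libraries scaled by total counts the split was 15 higher and 43 lower (25.9% of calls higher, against 41.8%), where the all-gene median was -0.15 and the members' median -0.24. Once the GC trend was removed, 29 members rose and 25 fell, beside 42.9% higher and 32.4% lower among all genes.

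The rise with JQ-1 was largest for MRPS33, a small-subunit protein with no bacterial counterpart. MRPS33 had 21.1, 22.7 and 22.4 CPM in JQ-1 cells, against 10.5, 11.6 and 13.6 CPM in untreated cells. Its log2 fold change was 0.90 (SE 0.083, edgeR adjusted p = 1.46e-09), and no JQ-1 library overlapped any of the other 18 libraries, since the highest of those had 14.4 CPM. MRPL41, a large-subunit protein, had 80.1, 74.7 and 82.1 CPM in JQ-1 cells, against 39.5, 46.7 and 45.4 CPM in untreated cells. The change was 0.85 (SE 0.085, edgeR adjusted p = 5.23e-09), and the groups lay well apart. MRPL40, whose gene lies in the 22q11 deletion region, had 37.7, 33.2 and 37.1 CPM in JQ-1 cells, against 18.5, 21.2 and 23.4 CPM in untreated cells. It rose by 0.78 (SE 0.078, edgeR adjusted p = 5.04e-09). MRPL54, another large-subunit protein without a bacterial counterpart, had 27.9, 23.6 and 24.4 CPM in JQ-1 cells, against 13.3, 16.5 and 16.6 CPM in untreated cells (0.72, SE 0.089, edgeR adjusted p = 1.57e-07). MRPL48 had 34.5, 32.7 and 31.8 CPM in JQ-1 cells, against 19.6, 23.3 and 24.3 CPM in untreated cells (0.56, SE 0.085, edgeR adjusted p = 2.68e-06). Every JQ-1 library was above every untreated one for these genes.

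The other 3 risers are given by their changes alone. MRPS25, a small-subunit protein, rose by 0.54 (SE 0.048), MRPL38 by 0.52 (SE 0.062), and MRPL10, which anchors the stalk that recruits translation factors, by 0.48 (SE 0.051). MRPS25 shares 756 bases of exon with NR2C2 on the other strand, and its deposited counts are fractional, as RSEM gives to reads that match more than one place. Of these 8 risers, MRPL10 is the only one with a bacterial counterpart, whereas 11 of all 23 members that rose have one.

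The fall was largest for MRPL11, a protein at the base of the stalk where elongation factors bind. MRPL11 had 14.3, 14.5 and 16.5 CPM in JQ-1 cells, against 29.4, 30.3 and 32.5 CPM in untreated cells. Its log2 fold change was -1.03 (SE 0.07, edgeR adjusted p = 5.23e-12), and the 15 libraries of the other compounds ran from 28.9 to 37.6 CPM. MRPL23, a protein at the exit of the peptide tunnel, had 20.7, 19.7 and 22.2 CPM in JQ-1 cells, against 32.8, 38.9 and 36.9 CPM in untreated cells. It fell by 0.79 (SE 0.062, edgeR adjusted p = 6.79e-11), with no overlap. MRPL19 had 54.8, 53.5 and 54.0 CPM in JQ-1 cells, against 93.1, 86.6 and 87.0 CPM in untreated cells (-0.72, SE 0.042, edgeR adjusted p = 3.84e-13). MRPL3 had 99.0, 97.1 and 94.1 CPM in JQ-1 cells, against 158, 151 and 167 CPM in untreated cells (-0.71, SE 0.038, edgeR adjusted p = 7.56e-14). MRPL3 stood among the 5 highest members in untreated cells, and per length it averaged 111 ± 3.29 TPM in JQ-1 cells and 205 ± 9.69 TPM in untreated cells (SD, n = 3 each). MRPL15 had 21.7, 21.4 and 21.7 CPM in JQ-1 cells, against 34.0, 35.1 and 35.1 CPM in untreated cells (-0.69, SE 0.053, edgeR adjusted p = 5.84e-11). In each of these 5 genes all JQ-1 libraries lay below all untreated ones.

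MRPL34 fell by 0.65 (SE 0.076), MRPL39 by 0.65 (SE 0.064) and MRPL9 by 0.52 (SE 0.058), again without overlap between JQ-1 and untreated libraries. All 8 of the members that fell furthest encode large-subunit proteins, beside 22 of all 32 that fell. MRPL39 alone among the 8 has no bacterial counterpart, beside 10 of the 32. Some of the 8 share exon bases with a gene on the other strand. These are 85 bases with MRPL23-AS1 for MRPL23, 223 with ABHD8 for MRPL34, 82 with GCFC2 for MRPL19 and 157 with OAZ3 for MRPL9. The sources used here do not say whether the counting used strand, so reads in those bases cannot be assigned with certainty. All 16 calls held with each JQ-1 or untreated library left out and with the GC trend removed.

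**Figure D2:**
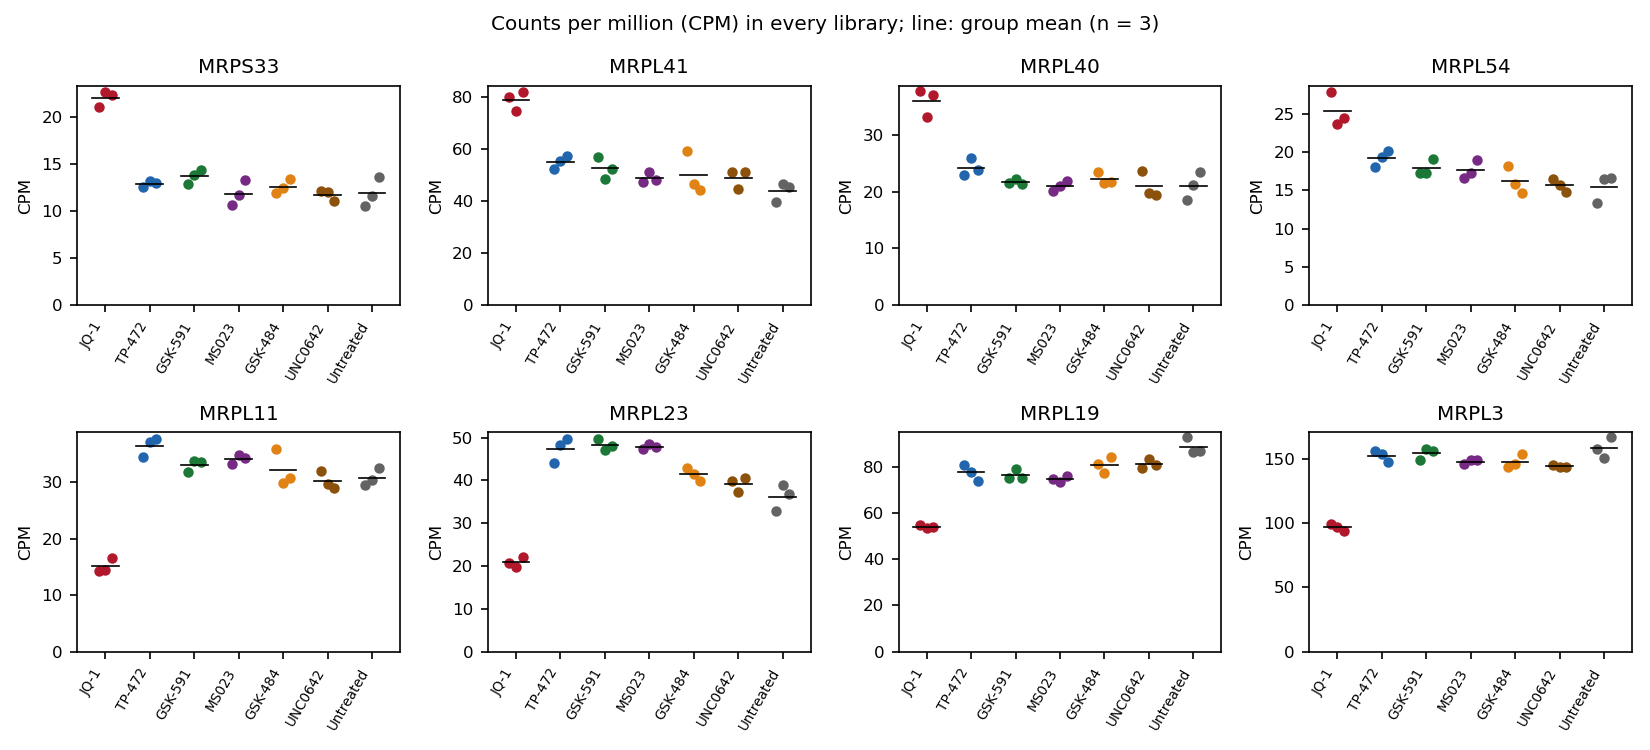
CPM in each of the 21 libraries for 8 members with large changes with JQ-1, on linear axes from 0 (points, libraries; lines, means of 3). The JQ-1 libraries lie above all others for MRPS33, MRPL41, MRPL40 and MRPL54 in the upper row, and below all others for MRPL11, MRPL23, MRPL19 and MRPL3 in the lower row.

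The other treated cells give a reference that does not use the untreated libraries. Against the other 5 compounds together, JQ-1 cells had 21 members higher (27.3%) and 37 lower (48.1%), beside 38.3% and 39.5% of all genes. The median was -0.11. MRPS33 was higher by 0.82 (SE 0.062), MRPL40 by 0.71 (SE 0.058) and MRPL41 by 0.63 (SE 0.063). The largest falls were those of MRPL11 at -1.13 (SE 0.058), MRPL23 at -1.1 (SE 0.051) and MRPL34 at -0.68 (SE 0.062). Removing the GC trend gave 29 higher and 29 lower, beside 45.5% and 34.4% of all genes, and with total-count scaling 16 and 48 (25% of calls higher, against 36.2%; median of all genes -0.11). In the 3 fits (against untreated cells, the same with the GC trend removed, and against the other 5 compounds), 19 members rose in all (24.7%) and 23 fell in all (29.9%), beside 32.0% and 30.9% of the 14599 genes with a GC content. The largest of the 19 were MRPS33, MRPL41, MRPL40, MRPL54 and MRPL48, and the largest of the 23 MRPL11, MRPL23, MRPL19, MRPL3 and MRPL15. The groups of these fits share the JQ-1 libraries, so the fits are not independent.

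Genes that work beside the mitochondrial ribosome moved as follows with JQ-1, where 35.7% of all genes were higher and 37.6% lower, or 42.9% and 32.4% with the GC trend removed. Of 6 subunit genes with other names, DAP3, a GTP-binding protein of the small subunit, rose by 0.19, PTCD3 by 0.26 and GADD45GIP1 by 0.27, whereas CHCHD1 fell by 0.35. AURKAIP1, at 0.14, and ICT1, the peptide-release factor built into the large subunit, at 0.14, did not pass the test. Removing the GC trend gave 4 higher and 1 lower of the 6. Of 28 assembly factors 14 rose and 3 fell (16 and 4 with the trend removed), with the largest rise in MPV17L2 (0.94, SE 0.078) and the largest fall in WBSCR16 (-1.15, SE 0.088). Translation factors had 6 of 18 higher, led by RMND1 (0.997, SE 0.062), and 6 lower, led by MTRF1, a release factor (-1.11, SE 0.1). The even split did not hold with the trend removed, when 10 were higher and 2 lower. The mitochondrial aminoacyl-tRNA synthetases had 9 of 20 higher, led by SARS2 (0.81, SE 0.065), and 9 lower, led by YARS2 (-0.73, SE 0.058), and 9 and 8 with the trend removed. Among 16 genes of mitochondrial DNA copying, transcription and RNA processing, 4 rose and 6 fell, against 5 and 2 of the 15 with a GC content once the trend was removed. POLG, the replicative polymerase, rose most (0.97, SE 0.049), and KIAA0391, the nuclease of mitochondrial RNase P, fell most (-1.24, SE 0.055). Of 76 nuclear genes listed for respiratory chain and ATP synthase subunits 24 rose and 18 fell, and 34 rose and 11 fell with the trend removed. They ran from ATP5S (1.39, SE 0.093) to NDUFC1 (-1.12, SE 0.12). ATP5S is listed by its symbol, and its place as a subunit was not checked. The ribosomal proteins of the cytosol had 53 of 82 higher and 3 lower and a median of 0.23 (66 and 1 with the trend removed), where the members had 23 of 77 higher and 32 lower (29 and 25). The contrast between the 2 lists was not tested.

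TP-472 moved members mostly upwards. Against untreated cells 27 members rose (35.1%) and 2 fell (2.60%), beside 17.3% higher and 14.5% lower among all genes, and 63 of 77 had a positive fold change. MRPL12, the stalk protein that also has been found with the mitochondrial RNA polymerase, had 82.4, 80.7 and 84.9 CPM in TP-472 cells, against 57.0, 64.4 and 66.9 CPM in untreated cells (0.40, SE 0.08, edgeR adjusted p = 0.000833). MRPL23 had 44.0, 48.2 and 49.6 CPM in TP-472 cells, against 32.8, 38.9 and 36.9 CPM in untreated cells (0.39, SE 0.057, edgeR adjusted p = 6.54e-05). MRPL53 had 35.2, 33.6 and 36.2 CPM in TP-472 cells, against 24.2, 28.1 and 29.3 CPM in untreated cells (0.37, SE 0.087, edgeR adjusted p = 0.00278). The groups did not overlap for these genes. The members that fell were MRPL19, by 0.20 (SE 0.041, edgeR adjusted p = 0.00117), and MRPL50, by 0.14 (SE 0.05, edgeR adjusted p = 0.0397). The MRPL50 call was lost without TP-472 replicate 1 or 3 or untreated replicate 1 or 3 (-0.11, -0.14, -0.14 and -0.10).

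These rises moved with GC content. Over the 77 members, Spearman's rank correlation between the fold change with TP-472 and transcript GC content was 0.856, and it was 0.607 over 14599 genes. Members ran from 35.0 to 71.9% GC with a median of 50.3%, beside 49.4% for all genes. After removal of the GC trend, the correlation was -0.12, which is no separate result, since the removal takes out such a trend by design. In that fit 8 members rose and 1 fell, beside 5.64% and 6.53% of all genes. The 8 were MRPL11, MRPL17, MRPL23, MRPL24, MRPL28, MRPL30, MRPL53 and MRPS15, named after their values were seen. A positive fold change remained for 68 of 77, with a median of 0.10 against 0.01 for all genes (0.09 for the members with the trend left in). At an unadjusted p under 0.05 in edgeR 29 were higher and 1 lower, a threshold at which all genes were not counted. MRPL12 changed by 0.15 in that fit (edgeR adjusted p = 0.141), and MRPL50 turned to 0.06 (edgeR adjusted p = 0.564). Without TP-472 replicate 3 or untreated replicate 1, the untouched fit called 18 and 16 members in place of 29.

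**Figure D3:**
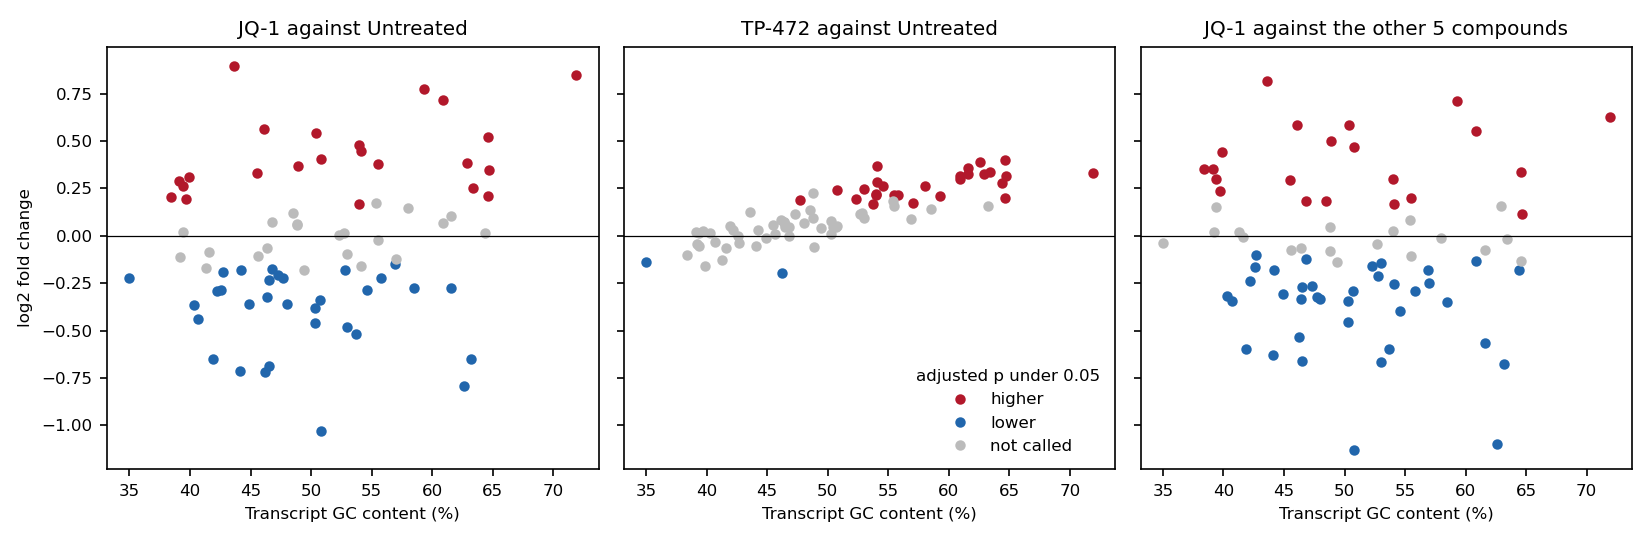
Log2 fold change of each member against the GC content of its transcript in percent, for JQ-1 and TP-472 against untreated cells and for JQ-1 against the other 5 compounds (points, 77 genes; red, higher; blue, lower; grey, not called). The TP-472 changes climb with GC content (rank correlation 0.856), and the JQ-1 changes spread both ways at all GC contents (rank correlation 0.201 against untreated cells, -0.07 against the other 5 compounds).

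With GSK-591, 17 members rose (22.1%) and 4 fell (5.19%), beside 18.1% and 14.8% of all genes. MRPL23 had 49.7, 47.2 and 48.0 CPM in GSK-591 cells, against 32.8, 38.9 and 36.9 CPM in untreated cells (0.42, SE 0.059, edgeR adjusted p = 3.03e-05). MRPL12 rose by 0.33 (SE 0.081, edgeR adjusted p = 0.00341), and MRPS34, which stabilises the small subunit, by 0.32 (SE 0.056, edgeR adjusted p = 0.000188). MRPL19 fell by 0.22 (SE 0.042), MRPS25 by 0.21 (SE 0.05) and MRPS14 by 0.18 (SE 0.066, edgeR adjusted p = 0.0366). The rank correlation with GC content was 0.721, and with the trend removed 8 rose and 3 fell, beside 13.6% of all genes called in either direction. MRPL12 (0.08), MRPS34 (0.07) and MRPS14 (-0.03) were no longer called in that fit, whereas MRPL23 (0.20) was. MRPS14 also lost its call without GSK-591 replicate 1 or 3 or untreated replicate 1 or 3 (-0.16, -0.19, -0.20 and -0.15). With total-count scaling 10 rose and 10 fell, where the all-gene median was -0.06 and the members' median -0.02. Without GSK-591 replicate 1, 13 members were called in place of 21.

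With MS023, 18 members rose (23.4%) and 9 fell (11.7%), beside 22% and 20.6% of all genes, so the share that rose was close to the background. MRPL23 had 47.4, 48.5 and 47.7 CPM in MS023 cells, against 32.8, 38.9 and 36.9 CPM in untreated cells (0.41, SE 0.057, edgeR adjusted p = 9.99e-06). MRPL12 (0.40, SE 0.08) and MRPL28 (0.40, SE 0.047) rose as well. The falls were led by MRPL50, with 28.6, 30.3 and 30.5 CPM in MS023 cells, against 38.9, 37.1 and 41.6 CPM in untreated cells (-0.40, SE 0.051, edgeR adjusted p = 3.3e-06). MRPS6 fell by 0.36 (SE 0.067) and MRPL33 by 0.30 (SE 0.092, edgeR adjusted p = 0.0117), and the MRPL33 call was lost without MS023 replicate 2 (-0.23). MRPS6 has 176 exon bases in common with SLC5A3 on the same strand. The rank correlation with GC content was 0.776. With the trend removed 7 rose and 6 fell, beside 17.3% of all genes in either direction. MRPL12 (0.08), MRPL23 (0.12), MRPL50 (-0.10) and MRPL33 (-0.13) were not called then, while MRPS6 (-0.32) and MRPL28 (0.13) were. With total-count scaling 10 rose and 20 fell, where the all-gene median was -0.06 and the members' median -0.05. Without untreated replicate 1, 17 members were called in place of 27.

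GSK-484 and UNC0642 changed few members. With GSK-484, 8 rose (10.4%) and 2 fell (2.60%), beside 11.4% and 7.66% of all genes. MRPL12 had 98.2, 73.6 and 73.3 CPM in GSK-484 cells, against 57.0, 64.4 and 66.9 CPM in untreated cells (0.38, SE 0.08, edgeR adjusted p = 0.00376), with GSK-484 replicate 1 well above the other libraries. Without that library the change was 0.23 (edgeR adjusted p = 0.0202). MRPL53 rose by 0.31 (SE 0.087) and MRPL28 by 0.22 (SE 0.047), and MRPL19 fell by 0.13 (SE 0.041, edgeR adjusted p = 0.0258). MRPL53 was not called without GSK-484 replicate 1 (0.17) or untreated replicate 1 (0.24), nor MRPL19 without GSK-484 replicate 1 or 2 or untreated replicate 1 (-0.14, -0.10 and -0.10). The other fall was MRPS36, named after its values were seen, with 15.7, 24.1 and 21.9 CPM in GSK-484 cells and 25.8 ± 2.48 CPM in untreated cells (SD, n = 3). The rank correlation with GC content was 0.756, and with the trend removed 0 members were called in edgeR, beside 0.5% of all genes, with 4 higher and 6 lower at an unadjusted p under 0.05. The count of 10 became 5 without GSK-484 replicate 1, 17 without GSK-484 replicate 3, 3 without untreated replicate 1 and 16 without untreated replicate 3. With total-count scaling 5 rose and 3 fell, where the all-gene median was -0.02 and the members' median -0.002.

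With UNC0642, 1 member rose (1.30%) and 10 fell (13.0%), beside 8.71% and 7.54% of all genes. The riser was MRPL28 (0.16, SE 0.047, edgeR adjusted p = 0.0231). MRPL1 had 13.2, 11.4 and 11.8 CPM in UNC0642 cells, against 14.2, 14 and 15 CPM in untreated cells (-0.26, SE 0.071, edgeR adjusted p = 0.0164). MRPL47, near the tunnel exit, fell by 0.24 (SE 0.061) and MRPL50 by 0.21 (SE 0.049). Without untreated replicate 3 the calls of MRPL1 (-0.22), MRPL47 (-0.18) and MRPL50 (-0.16) were lost. Without UNC0642 replicate 2 those of MRPL1 (-0.21), MRPL47 (-0.21) and MRPL28 (0.17) were lost, without UNC0642 replicate 3 those of MRPL1 (-0.24) and MRPL28 (0.16), and without untreated replicate 1 that of MRPL28 (0.13). The rank correlation with GC content was 0.792, and with the trend removed 1 member, MRPL34, was called, as lower, beside 2.94% of all genes in either direction. The count of 11 became 2 without UNC0642 replicate 2, 3 without UNC0642 replicate 3 and 2 without untreated replicate 3.

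**Figure D4:**
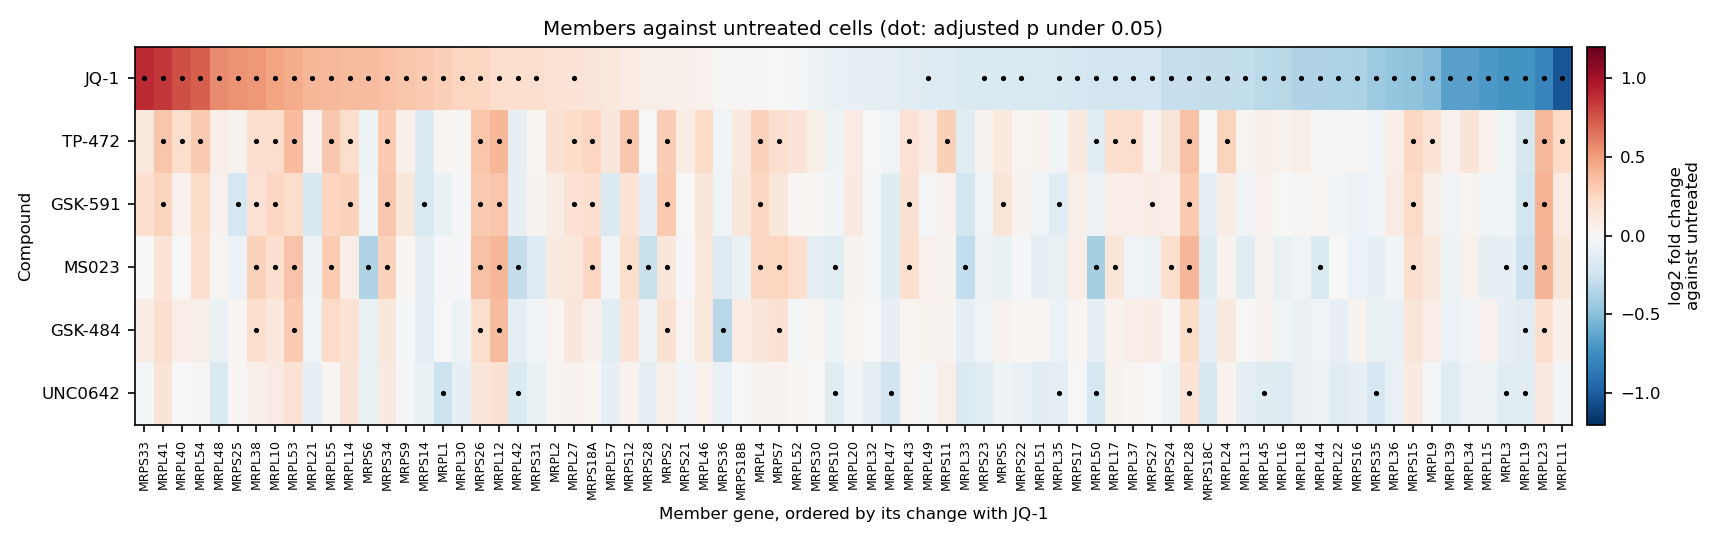
Log2 fold change against untreated cells of the 77 members (columns, ordered by the change with JQ-1) for the 6 compounds (rows), on a colour scale from blue (lower) to red (higher), with a dot where the adjusted p is under 0.05. JQ-1 spans -1.03 to 0.90 with 55 calls, and the other rows hold 10 to 29 calls each within -0.40 to 0.42.

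All 6 compounds were set against the same untreated libraries, so calls shared between them are given side by side. MRPL19, a large-subunit protein, was the only member called in the same direction with all 6 compounds (1.30% of members as lower, beside 1.25% of all genes). It averaged 54.1 ± 0.627 CPM with JQ-1, 77.7 ± 3.35 with TP-472, 76.6 ± 2.16 with GSK-591, 75 ± 1.19 with MS023, 81.1 ± 3.57 with GSK-484, 81.5 ± 1.94 with UNC0642 and 88.9 ± 3.66 CPM in untreated cells (SD, n = 3 each). Untreated libraries were the highest group and JQ-1 the lowest. With the GC trend removed it was called with 4 of the 6, not with GSK-484 or UNC0642. In all, 3 members fell with JQ-1 and rose with at least 3 other compounds, namely MRPL23 (rising with 4), MRPL28 (rising with 5) and MRPS15 (rising with 3). These are 3.90% of members, beside 3.74% of all genes, which is no more than the background. MRPL28 averaged 48.8 ± 1.49 CPM with JQ-1, 75.6 ± 2.99 with TP-472, 73.3 ± 4.43 with GSK-591, 78.0 ± 1.88 with MS023, 68.8 ± 3.23 with GSK-484, 66.0 ± 0.476 with UNC0642 and 59.1 ± 2.85 CPM in untreated cells (SD, n = 3 each). MRPS15, a small-subunit protein of bacterial origin, had a log2 fold change of -0.48 (SE 0.062) with JQ-1 and of 0.25 (SE 0.06) with TP-472. After removal of the GC trend each of the 3 was lower with JQ-1 and higher with 2 others. MRPL28 shares 223 exon bases with TMEM8A on the same strand. In edgeR 0 members rose with all 6 compounds, beside 2.54% of all genes. A further 10 (13.0%, beside 14.7% of all genes) were called with none, among them MRPL51, the highest in untreated cells. Over the 7 group means, MRPL11 spanned 1.27 and MRPL23 1.21 log2 units, the widest ranges, whereas MRPL32 (0.121) and MRPS21 (0.123) spanned the least.

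The products of the 3 genes named MRPS18 differ in place. MRPS18C sits in the small subunit at the bacterial S18 position, MRPS18B elsewhere in the small subunit, and MRPS18A in the large subunit. MRPS18A did not pass the test with JQ-1 (0.15, SE 0.072) and rose with TP-472 (0.26, SE 0.071), GSK-591 (0.19, SE 0.073) and MS023 (0.25, SE 0.071), though not once the GC trend was removed. MRPS18B averaged 60.1 ± 2.72 CPM with JQ-1 and 59.6 ± 4.79 CPM in untreated cells (SD, n = 3 each), and was called with none of the 6. MRPS18C fell with JQ-1 by 0.29 (SE 0.088, edgeR adjusted p = 0.00613), and not after removal of the GC trend. Its counts are fractional and it shares 1178 exon bases with FAM175A on the other strand.

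The direct contrasts between treated groups leave the untreated libraries out. GSK-591 and MS023 act on different classes of arginine methyltransferase, and between them 7 members were higher with GSK-591 (9.09%) and 0 lower, beside 5.43% and 4.46% of all genes. At an unadjusted p under 0.05 in edgeR 2 were lower, and DESeq2 also called 0 lower. MRPL50 had 34.7, 37.1 and 39.8 CPM in GSK-591 cells, against 28.6, 30.3 and 30.5 CPM in MS023 cells (0.32, SE 0.052, edgeR adjusted p = 0.000423). MRPS6 had 21.2, 20.4 and 20.8 CPM in GSK-591 cells, against 16.2, 16.5 and 18 CPM in MS023 cells (0.30, SE 0.069, edgeR adjusted p = 0.0068). MRPS18B had 67.1, 61.3 and 67.7 CPM in GSK-591 cells, against 57.4, 54.8 and 56.6 CPM in MS023 cells (0.22, SE 0.054, edgeR adjusted p = 0.0123). No library of one group reached the other for these genes. The MRPS18B call was lost without GSK-591 replicate 3 (0.19) or MS023 replicate 2 (0.20). With the GC trend removed, 11 were higher and 1 lower, beside 5.28% and 5.37% of all genes.

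TP-472 and UNC0642 had the highest and the lowest member share among the 5 compounds other than JQ-1, and their contrast was chosen after the counts were seen. The p-values take no account of that choice. The gap in share and the direction of the calls come from the values that led to it, and are given as description. The members took 0.400 ± 0.00368% of all counts in TP-472 libraries and 0.356 ± 0.0138% in UNC0642 libraries (SD, n = 3 each), with ranges of 0.3972 to 0.4044% and 0.3472 to 0.3721% that do not overlap. JQ-1 libraries held 0.324 ± 0.00941% and untreated libraries 0.375 ± 0.0255%. Between TP-472 and UNC0642, 27 members were higher with TP-472 (35.1%) and 0 lower, beside 10.1% and 11.8% of all genes. At an unadjusted p under 0.05 in edgeR 49 were higher and 0 lower, and DESeq2 called 29 higher and 0 lower. All genes were counted in neither way, so these counts have no background here. A positive difference was seen for 75 of 77, all but MRPL19 (-0.07) and MRPS14 (-0.08), with a median of 0.15 against 0.02 for all genes. MRPL54 had 18, 19.3 and 20.2 CPM in TP-472 cells, against 16.5, 15.7 and 14.8 CPM in UNC0642 cells (0.30, SE 0.088, edgeR adjusted p = 0.0185). MRPS12, a protein of the decoding centre, had 29.4, 32.8 and 31.9 CPM in TP-472 cells, against 26.6, 25.3 and 25.8 CPM in UNC0642 cells (0.28, SE 0.072, edgeR adjusted p = 0.00867). MRPL1 had 15.2, 14.2 and 14.5 CPM in TP-472 cells, against 13.2, 11.4 and 11.8 CPM in UNC0642 cells (0.28, SE 0.071, edgeR adjusted p = 0.00798). All TP-472 libraries were above all UNC0642 libraries for these 3.

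The same contrast gave 20 of 50 large-subunit and 7 of 26 small-subunit genes as higher. The 6 subunit genes with other names were all positive, 3 of them called. Cytosolic ribosomal proteins were higher for 29 of 82 and lower for 1 (median 0.16), and respiratory chain and ATP synthase genes higher for 19 of 76 and lower for 0 (median 0.15), so the difference was not seen in the members alone. After removal of the GC trend 36 members were higher and 0 lower, beside 12% and 12.8% of all genes. With total-count scaling 40 were higher and 0 lower, where the all-gene median was 0.045 and the members' median 0.18. The count of 27 became 16 without TP-472 replicate 2, 8 without TP-472 replicate 3, 6 without UNC0642 replicate 2 and 11 without UNC0642 replicate 3. The MRPL54 call was lost without TP-472 replicate 2 or 3 or UNC0642 replicate 2 or 3 (0.29, 0.25, 0.30 and 0.26), that of MRPS12 without TP-472 replicate 2 (0.24) or UNC0642 replicate 2 (0.26), and that of MRPL1 without UNC0642 replicate 2 (0.23). Set against the 4 other treated groups except JQ-1, TP-472 had 4 members higher and 0 lower, beside 3.9% and 4.7% of all genes. The fold change with TP-472 was positive for 75 of 77. UNC0642 had 0 higher and 23 lower, beside 14.2% and 13.3%, and 6 of 77 were positive. The reference of TP-472 includes UNC0642, and that of UNC0642 includes TP-472. All these counts rest on the values that led to the contrast, and are given as description. The unadjusted edgeR p was under 0.05 for 31 higher and 0 lower with TP-472, and for 1 higher and 33 lower with UNC0642, without a count over all genes.

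**Figure D5:**
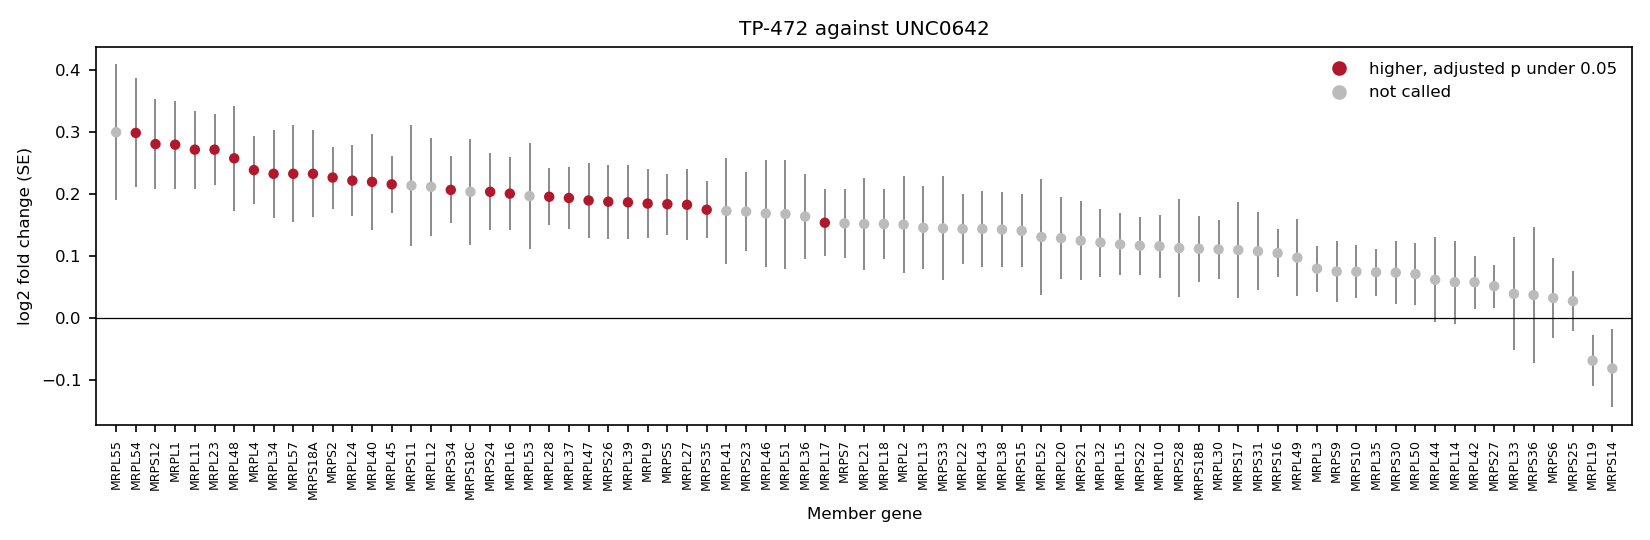
Log2 fold change of each of the 77 members in TP-472 against UNC0642 cells, ordered from high to low (points, estimates; bars, SE; red, adjusted p under 0.05; grey, not called). All but MRPL19 and MRPS14 lie above 0, and 27 are called higher.

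The promoters of the members, 300 bases from 250 before to 50 after the RefSeq start, were searched on both strands for 5 motifs, for 68 members and 10975 tested genes with an entry. The ETS motif CCGGAAG was found in 41.2% of members and 17.9% of all genes. The motif AAGATGGC, bound by YY1, was found in 29.4% of members and 5.07% of all genes. The NRF1 motif GCATGCGC, of the factor known for nuclear genes of mitochondrial proteins, was in 8.82% and 5.34%, and the CCAAT box in 29.4% and 36.9%. The E-box CACGTG, which MYC with its partner MAX can bind, was in 8.82% of members and 9.88% of all genes. Of the members with an entry that rose with JQ-1, 11 of 21 held the ETS motif, and of those that fell, 7 of 28. The NRF1 motif was in 0 of the 21 and 3 of the 28, the YY1 motif in 2 and 6, and the CCAAT box in 3 and 9. Over all 68 members, 28 held the ETS motif, 6 the NRF1 motif, 20 the YY1 motif and 20 the CCAAT box. The remaining copies lie in members that were not called with JQ-1. The E-box was in 0 of the 21 and in 6 of the 28. The 6 are shown as 30 bases on the gene's strand in GRCh38.p14, with the motif in capitals, since all copies among the members lie in genes that fell. They are chr5:154940885-154940914 (plus) for MRPL22, chr5:1799876-1799905 (minus) for MRPL36, chr1:54199985-54200014 (plus) for MRPL37, chr17:38297023-38297052 (plus) for MRPL45, chr11:65121933-65121962 (plus) for MRPL49 and chr4:83455867-83455896 (plus) for MRPS18C.
MRPL22: ttttcggaagccCACGTGctttcggccttt
MRPL36: acgtgggcacgcCACGTGaccccccccccc
MRPL37: tgcgcttcacctCACGTGaggattttccag
MRPL45: cactcccgcgagCACGTGcgcgtcctcgct
MRPL49: cggctCACGTGgggaaggccaggcctccca
MRPS18C: aatcataagcctCACGTGacctgccgcgta
Their log2 fold changes with JQ-1 were -0.37 for MRPL22, -0.46 for MRPL36, -0.23 for MRPL37, -0.32 for MRPL45, -0.15 for MRPL49 and -0.29 for MRPS18C. None is among the 8 that fell furthest, and MRPL22 and MRPS18C were not called with the GC trend removed. A match is a description of these letters, and no test was made. The motifs were not counted among all genes that rose or fell with JQ-1, so these splits have no background here.

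Some members start close to a neighbour that is read the other way. The start of 19 members lay within 1000 bases of the start of a tested gene on the opposite strand, and MRPL46 and MRPS11 were each other's neighbour. With JQ-1, 5 of 18 distinct pairs were called in the same direction (27.8%) and 2 in opposite directions (11.1%). Among 761 such pairs of tested genes the shares were 29.3% and 23.3%, so calls in the same direction were about as frequent as elsewhere. MRPL41 rose beside PNPLA7 (0.58), whose start is 665 bases away, and MRPS34 (0.35) beside EME2 (1.14), at 52 bases. MRPL36 fell (-0.46) beside NDUFS6, a subunit of complex I (-0.29), at 34 bases, MRPL50 (-0.22) beside ZNF189 (-0.37), at 259 bases, and MRPL13 (-0.29) beside MTBP (-1.84). In the other direction, MRPL18 fell (-0.36) while TCP1, a subunit of the cytosolic chaperonin, rose (0.13), and MRPL21 rose (0.40) while IGHMBP2, a helicase, fell (-0.26).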

How the data were processed

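Poly-A selected RNA of SK-MEL-147 cells was sequenced by the authors on an Illumina HiSeq 2500, per the labels. The authors deposited one table of expected counts per gene and library, unscaled. Per the submitters' processing notes they used Bowtie2 2.1.0, RSEM 1.2.15 and build hg38, and the annotation is not given in the sources used here. Replicates of a group differed by more than sampling noise (chi-square per degree of freedom at least 3.43 over 21 pairs), and 0 pairs were identical. p-values measure the spread between replicates as labelled.

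Expected counts were rounded, filtered with filterByExpr (minimum count 10, total 15), scaled by TMM and fitted in 1 model over 21 libraries with edgeR 4.0.16 (R 4.3.3), two-sided quasi-likelihood test, Benjamini-Hochberg adjusted p under 0.05, prior count 0.125. CPM is per TMM-scaled total. The GC trend of each library was removed by loess offsets (span 0.3, 4 iterations, prior count 2) over 14599 genes. GC content, lengths, positions and overlaps come from GENCODE 29, and promoters from RefSeq. Named genes were, per comparison, the called members with the largest changes, a mean of 3 CPM or more where higher, and groups that did not overlap (8 and 8 with JQ-1, 3 and 3 otherwise), the highest and lowest levels, and members called across compounds. Alternatives were DESeq2 1.42.0, other scalings, no filter, a replicate block, other treated groups as reference and leaving out each library. Under these, and at an unadjusted p, only members were counted unless a share of all genes is given. The contrast of TP-472 with UNC0642, the motifs and the divergent pairs were added after values were seen. The members and lists were chosen with earlier results of these data known. The fit was tested on simulated data. Fold changes in CPM compare shares of RNA, so total RNA per cell was not measured. One marker of another cell type is not reported here.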

Additional observations from a re-analysis of the deposited data

How the results depend on the processing

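The counts with JQ-1 (55 members against untreated cells, 58 against the other 5 compounds) stayed within 1.5 times under every alternative run. The other counts depended on the reference and on GC content. With the GC trend removed, 9 members were called with TP-472, 11 with GSK-591, 13 with MS023, 0 with GSK-484, 1 with UNC0642 and 12 between GSK-591 and MS023. Set against the remaining treated groups, JQ-1 left out, 4 were called with TP-472, 4 with GSK-591, 12 with MS023, 0 with GSK-484 and 23 with UNC0642. Of all genes 8.6% were called with TP-472, 7.54% with GSK-591, 18.9% with MS023, 0.126% with GSK-484 and 27.5% with UNC0642. With the GC trend removed as well, the counts were 11 with TP-472, 7 with GSK-591, 8 with MS023, 0 with GSK-484 and 24 with UNC0642. In that order these are 14.3%, 9.09%, 10.4%, 0% and 31.2% of members, beside 11.8%, 11.1%, 14.6%, 0.247% and 28.2% of all genes in either direction. Leaving out each library of the compared groups in turn gave 16 to 35 with TP-472, 13 to 28 with GSK-591, 17 to 26 with MS023, 3 to 17 with GSK-484, 2 to 10 with UNC0642, 51 to 57 with JQ-1, 53 to 55 for JQ-1 against the other 5 compounds, 5 to 7 between GSK-591 and MS023 and 6 to 30 between TP-472 and UNC0642. For JQ-1 against the other 5 compounds only JQ-1 libraries were left out, and no library of the reference. Total-count scaling moved the count between TP-472 and UNC0642 to 40 in place of 27.

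Of 53 single-gene results, 52 kept direction and call with DESeq2, 36 with the GC trend removed (16 lost the call), 53 with RLE scaling, 52 with total-count scaling and 52 with no filter. With other treated groups as the reference 21 of 41 did, and with the GC trend removed as well 23 of 41. All the JQ-1 results among the 41 kept direction and call in both. The results that lost their call or reversed there all belong to the other 5 compounds, for which most did not hold. In leaving out a library, 268 of 300 did, 32 lost the call and 0 reversed. Those that reversed with the other treated reference, alone and then with the GC trend removed, were MRPL12 with GSK-591 (-0.0107 and -0.0171), MRPL19 with GSK-484 (0.0623 and 0.0431), MRPL28 with GSK-484 (-0.0883 and -0.0654), MRPL28 with UNC0642 (-0.162 and -0.0907) and MRPL50 with TP-472 (0.0571 and 0.0373, and 0.0579 with the GC trend removed alone). MRPL12 with MS023 reversed to -0.0214 with both. The cause was not tested. Same-numbered replicates did not deviate together over the genes tested (r -0.16 to 0.137 over 63 pairs of libraries, median -0.00243). The labels do not say whether same-numbered libraries were handled together, and these correlations cannot decide it. A fit with the replicate block called 55 members with JQ-1, 28 with TP-472, 22 with GSK-591, 28 with MS023, 10 with GSK-484, 10 with UNC0642, 58 for JQ-1 against the other 5 compounds, 7 between GSK-591 and MS023 and 26 between TP-472 and UNC0642.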
